A study of Mus musculus with 14 samples.

Results

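The genes described here encode cytosolic chaperones and their helpers: the HSP70 and HSP90 families, small heat shock proteins, the cytosolic chaperonin CCT with prefoldin, and the heat shock factors HSF1 and HSF2. The 40 members were taken by gene symbol from a table of 40800 genes, and for each symbol the transcript row with the most reads over the 14 libraries was used, out of 81 rows that carried these symbols. All 40 passed the filter on low counts. The lowest count of any member was 64 reads, for Hspa2. Hspa9, Hspd1 and Hspe1 encode chaperones of the mitochondrial matrix, and for these 3 genes the word cytosolic does not hold. They are described as a group of their own.

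The study measured RNA levels by bulk RNA sequencing of mouse embryonic fibroblasts (MEFs), connective tissue cells grown from mouse embryos. Control cells (0 h) were taken from ordinary high-glucose medium with fetal bovine serum. Starved cells were washed and kept for 3, 6 or 12 h either in medium without amino acids or in medium without glucose, both with dialyzed serum, from which small molecules have been removed. There were 2 libraries in each of the 7 groups. Starved cells were detached with trypsin and frozen in dialyzed serum with DMSO, and the control was frozen in ordinary serum, so a comparison with the control also holds the wash, the serum and the freezing medium. The comparison of amino acid with glucose starvation at the same time is free of these differences. Whether a group's 2 libraries are separate cultures is not stated in the labels, so the p-values below cover the variation among these libraries, and that variation may be technical.

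The libraries held 35270751 to 55349673 reads assigned to genes, and libraries of 1 group correlated at 0.997 to 0.998 (Pearson's r across genes, log2 of CPM, counts scaled by library size, plus 1; genes are not independent replicates). Of 13 fibroblast markers 10 were tested. Lum was at 0 in all libraries, and Thy1, Fap and Dcn were at most at 0.542 CPM in any library. The 13 markers summed to 8740 to 9510 CPM in the control. After 12 h they summed to 2530 to 2730 CPM without amino acids and 6450 to 6500 CPM without glucose. The list did not move as one. After 6 h without amino acids Fn1 was at a mean of 2940 CPM, against 1510 CPM in the control, and Vim at 893 CPM, against 2250 CPM. Summed markers of other cell types were lower throughout: 14.4 to 23.9 CPM for macrophages (Adgre1, C1qa, C1qb and Tyrobp at 0), 4.21 to 5.08 CPM in the control and 12.6 to 23.6 CPM in the starved libraries for endothelial cells, 4.34 to 58.7 CPM for neural cells (Olig2 at 0), 1.32 to 7.2 CPM for skeletal muscle, and at most 1.07 CPM for adipocyte, epithelial and erythroid lists. The endothelial sum was mostly Kdr, at a group mean of 4.4 CPM in the control and 12.3 to 22.1 CPM in the starved groups. The other endothelial markers were at most at 0.699 CPM in any library. The neural sum was mostly Tubb3 and the macrophage sum mostly Csf1r. The fibroblast, macrophage, endothelial, neural and skeletal muscle sums differed between some of the groups without overlap (in the control 14.4 to 14.9 CPM for macrophages and 4.66 to 4.82 CPM for muscle). The part of these sums in the results below was not tested. In bulk samples, fewer cells of a type and less RNA per cell cannot be told apart.

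Chaperones bind unfolded protein and help it to fold, or hold it until it can. HSP70 proteins receive clients from J-domain proteins, pass some of them to HSP90 through adaptor proteins, and release others after nucleotide exchange, which BAG and HSP110 proteins speed. The ring-shaped CCT complex folds actin and tubulin, which prefoldin delivers to it, and many of these genes are targets of HSF1, which binds heat shock elements made of alternating GAA and TTC blocks.

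Because many of these genes are targets of HSF1, promoter windows of the members were searched for heat shock elements. The RefSeq windows (GRCm38.p6) ran from 250 bases before to 50 bases after each annotated start. Hspa8, Hsp90aa1, Hsp90ab1, St13, Hspa9, Cryab, Cct4, Pfdn1 and Hsf1 had no window, so they were not searched. A window was found for the other 31 of the 40 members. It was searched on both strands for TTCNNGAA and GAANNTTC, which hold 2 blocks, and for the same alternation carried on by NN and 1 more TTC or GAA block, which makes 3. The 2-block spellings lie within the 3-block ones. The 3-block spelling was in 4 of 31 members (12.9%: Hsph1, Chordc1, Hspd1 and Hspe1), against 179 of 27025 genes with a window (0.662%). The 2-block spelling was in 15 of 31 members (48.4%) and in 4587 of all genes (17%). The matches below are a selection: the 3-block matches, the shared match of Hspa1a and Hspa1b, both matches of Hspb1, the member with the lowest log2 fold change after 12 h without amino acids, and that of Fkbp4, an HSP90 cochaperone. Matched bases are in capitals, and further 2-block matches, of these and other members, are not shown. They describe letters, not measured binding.
Hspd1, chr1:55088053-55088082, minus strand, overlapping an annotated exon: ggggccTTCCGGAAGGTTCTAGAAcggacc
Hspe1, chr1:55088053-55088082, plus strand, overlapping an annotated exon: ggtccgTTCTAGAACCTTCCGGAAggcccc
Hsph1, chr5:149636280-149636308, minus strand, overlapping an annotated exon: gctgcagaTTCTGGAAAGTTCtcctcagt
Chordc1, chr9:18292260-18292288, plus strand, overlapping an annotated exon: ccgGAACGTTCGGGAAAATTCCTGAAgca
Hspa1a, chr17:34972242-34972271, minus strand, outside annotated exons: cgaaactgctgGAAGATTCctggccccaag
Hspa1b, chr17:34959324-34959353, minus strand, outside annotated exons: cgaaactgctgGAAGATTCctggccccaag
Hspb1, chr5:135887791-135887820, plus strand, outside annotated exons: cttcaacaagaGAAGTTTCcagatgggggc
Hspb1, chr5:135887811-135887840, plus strand, outside annotated exons: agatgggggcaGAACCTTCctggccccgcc
Fkbp4, chr6:128438789-128438818, minus strand, overlapping an annotated exon: ccgcttctctaGAAAGTTCtccgctcccgc
Hspd1 and Hspe1 lie head to head, and the same 30 bases, read from either strand, hold the match of both genes, with 18 matched bases in a row. Hspa1a and Hspa1b carry the same 30 letters, and their windows were identical at 247 of the 250 bases before the start. Among the 4 genes with the 3-block spelling, Hsph1, Hspd1 and Hspe1 fell by 12 h without amino acids, and Chordc1 did not. At that time 33 of the 40 members and 32.0% of all genes were lower, and a link to the spelling was not tested.

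Without amino acids the chaperone genes took a falling share of the reads. The 40 members took 1.96% and 2% of the reads in the control libraries, 1.74% and 1.77% after 3 h without amino acids, 1.45% in both libraries at 6 h, and 1.04% and 1.07% at 12 h. Without glucose they took 1.96% and 1.99% at 3 h, 2.01% and 2.03% at 6 h, and 2.2% in both libraries at 12 h. Every amino acid starved library was below both controls. Without glucose both libraries at 6 h, by little, and both at 12 h were above them. Hspa8 and Hsp90ab1 weighed most in this share in the control, at means of 3850 and 4350 CPM. At 12 h they were at 478 and 1060 CPM without amino acids, and at 6190 and 4250 CPM without glucose.

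The share of members called (edgeR's quasi-likelihood test, Benjamini-Hochberg adjusted p under 0.05 over 17696 genes) is read here against the share of all genes called. After 3 h without amino acids 14 members rose and 17 fell, where 27.9% of all genes rose and 32.1% fell, and the median log2 fold change was -0.05 against -0.07 for all genes. At 6 h 8 rose and 27 fell (all genes 32.3% and 33.3%), with a median of -0.40 against -0.01. At 12 h 3 rose and 33 fell (all genes 34.9% and 32.0%), with a median of -0.73 against 0.06. By then 15 members had fallen at least 2-fold, as had 14.2% of all genes.

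Glucose starvation gave smaller differences, and their split depended on the scaling. At 3 h 15 members rose and 4 fell (all genes 20.3% and 23.1%; median 0.07 against -0.04), at 6 h 13 rose and 8 fell (23.3% and 24.2%; median 0 against -0.01), and at 12 h 15 rose and 11 fell (30.4% and 28.0%; median 0.05 against 0.01). Hspa9 was at least 2-fold higher at 12 h, as were 8.06% of all genes. With library totals in place of TMM factors, which correct for composition, 6 rose and 15 fell at 3 h, 6 and 19 at 6 h, and 10 and 15 at 12 h. The median of all genes then lay at -0.21, -0.14 and -0.09. The share of higher genes among all called genes moved in the same way, from 46.8% to 25.7% at 3 h and from 49% to 33.1% at 6 h. For amino acids the same change of scaling gave 9 higher and 23 lower at 3 h (all-gene median -0.24), 6 and 27 at 6 h (-0.08) and 5 and 30 at 12 h (0.19). Leaving out glucose 3 h replicate 1 left 2 lower members at 3 h. At 6 h, 8 higher members were left without glucose 6 h replicate 2, and 5 lower members without glucose 6 h replicate 1.

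Calls differed in how firmly they held. Of the 33 members lower after 12 h without amino acids 30 kept the call under every alternative run (another scaling, library totals, DESeq2, both other filters, the replicate block, the longest transcript row and leaving out each library in turn). After 3, 6 and 12 h without glucose the same was true of 5 of 15, 6 of 13 and 9 of 15 higher members, and of 1 of 4, 3 of 8 and 9 of 11 lower members. In what follows a member is said to have risen or fallen only where its call held under all of these, and other values are given as values. The 6 comparisons with the control share its 2 libraries.

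**Figure D1:**
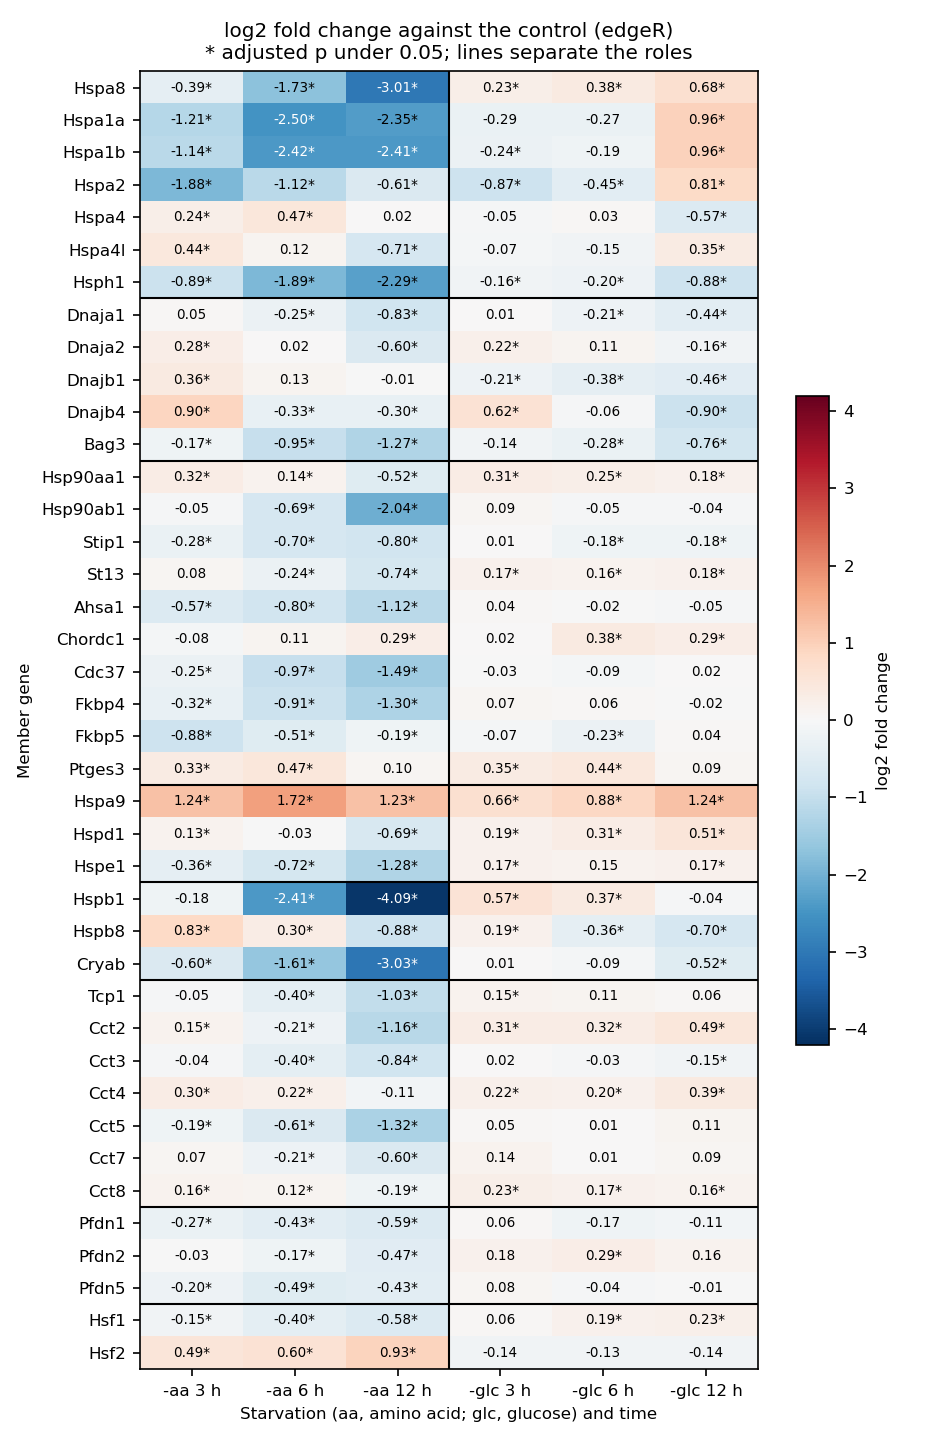
Heatmap of the log2 fold change of each member (rows, by role) against the control after 3, 6 and 12 h without amino acids (left) or glucose (right); an asterisk marks an adjusted p under 0.05. The right of the amino acid block is mostly blue, with Hspa9 and Hsf2 as the members that rose at all 3 times, and the glucose block is paler.

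The heat shock factors moved apart without amino acids. Hsf1 encodes the main activator of heat shock genes, and it was at 107 and 101 CPM in the control, 96.1 and 91.3 CPM after 3 h without amino acids, 82.2 and 75.7 CPM at 6 h and 68.9 and 70.5 CPM at 12 h. Every later amino acid time lay below the one before, without overlap. Hsf1 fell by 0.40 on the log2 scale at 6 h (SE 0.059, adjusted p = 8.93e-07) and by 0.58 at 12 h (adjusted p = 9.45e-10). At 3 h its log2 fold change was -0.15, a call lost without control replicate 1 (-0.11) or amino acid 3 h replicate 2 (-0.11).

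Hsf2, which encodes a related factor that can pair with HSF1, went the other way. It was at 39.0 and 43.6 CPM in the control, 56.5 and 59.8 CPM at 3 h, 63.9 and 61.9 CPM at 6 h and 75.7 and 81.3 CPM at 12 h without amino acids. Among the members it was the one that was higher at each amino acid step with no overlap between libraries, as were 4.22% of all genes tested. Its log2 fold change was 0.49, 0.60 and 0.93 (SE 0.069 each, adjusted p = 4.46e-07, 7.29e-09 and 8.27e-13). Without glucose Hsf2 stayed between 36.9 and 38.6 CPM and passed no test (adjusted p = 0.104, 0.13 and 0.0808). Per transcript length (RPKM), the level of Hsf2 was 0.294 and 0.35 of that of Hsf1 in the control libraries, 0.887 and 0.932 after 12 h without amino acids, and 0.249 and 0.247 after 12 h without glucose. For Hsf1 without glucose the log2 fold change was 0.06, 0.19 and 0.23, and with library totals the last 2 were 0.06 and 0.12 and no longer passed. The value at 6 h also missed the threshold without control replicate 2 (0.15) or glucose 6 h replicate 1 (0.18).

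Among the HSP70 genes, Hspa8, Hspa1a and Hspa1b were lower without amino acids and higher without glucose at 12 h. Hspa8 encodes the constitutive cytosolic HSP70 that serves unstressed cells. It was at 3903 and 3802 CPM in the control, 2928 and 2964 CPM at 3 h, 1162 and 1153 CPM at 6 h and 476 and 481 CPM at 12 h without amino acids. Without glucose it was at 4430 and 4611 CPM, 4950 and 5092 CPM, and 6195 and 6188 CPM at the same times. The libraries of the 7 groups did not overlap, and they formed a falling series on one side of the control and a rising series on the other. The log2 fold change was -0.39, -1.73 and -3.01 without amino acids (SE 0.05 to 0.054, adjusted p = 5.43e-27 at 12 h), an 8.06-fold drop at 12 h. Without glucose it was 0.23, 0.38 and 0.68 (adjusted p = 0.000365, 2.44e-07 and 1.15e-12), and with library totals the value at 3 h was 0.06 and did not pass. Per length (RPKM), Hspa8 and Hsp90ab1 stood highest among the members in the control, at a mean of 1610 and 1730 RPKM. At 12 h without amino acids Hspa9 led with 480 RPKM and Hspa8 stood at 200 RPKM, while after 12 h without glucose Hspa8 led with 2590 RPKM. Of the 100-base stretches of the Hspa8 transcript 63.4% also occur in another annotated gene, chiefly the pseudogene Gm15459, so its reads may be split in a way that the counting does not show.

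Hspa1a and Hspa1b encode the near-identical stress-inducible HSP70 proteins. Hspa1a was at 39.6 and 27.2 CPM in the control, 14.1 and 14.8 CPM at 3 h, 5.27 and 6.48 CPM at 6 h and 7.14 and 5.99 CPM at 12 h without amino acids. Hspa1b followed it, with 55.9 and 43.6 CPM in the control and 10.3 and 8.50 CPM at 12 h. For both genes the log2 fold change was -2.50 and -2.42 at 6 h, and -2.35 and -2.41 at 12 h (SE 0.15 and 0.1, adjusted p = 1.46e-10 and 7.34e-18), where the libraries lay near the 6 h level. After 12 h without glucose Hspa1a stood at 64.7 and 64.9 CPM and Hspa1b at 94.6 and 99.1 CPM, above both controls. Their log2 fold changes there were 0.96 ± 0.13 and 0.96 ± 0.089 (SE, adjusted p = 5.4e-06 and 3.53e-10). At 3 and 6 h without glucose the libraries of Hspa1a overlapped the controls, and it did not pass (-0.29 and -0.27). The log2 fold change of Hspa1b at 3 h was -0.24, and without control replicate 1 it was -0.05 and did not pass. Of the 100-base stretches of the Hspa1b transcript 49.9% occur in Hspa1a, so the split of reads between this pair is uncertain.

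Hspa2, a member best known from testis, was low throughout. It had 6.98 and 6.31 CPM in the control, 1.62 and 1.98 CPM at 3 h and 4.27 and 4.46 CPM at 12 h without amino acids, and 12.5 and 10.7 CPM after 12 h without glucose. Its fall was therefore deepest at 3 h (log2 fold change -1.88, SE 0.17, adjusted p = 1.53e-10) and shallower at 12 h (-0.61, adjusted p = 0.000902). It fell at 3 h without glucose (-0.87) and rose at 12 h (0.81, SE 0.14, adjusted p = 2.08e-05). The 6 h value without glucose was -0.45, and it did not pass without control replicate 1 (-0.37) or glucose 6 h replicate 2 (-0.40).

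The HSP110 genes encode large relatives that release nucleotide from HSP70. Hsph1 was called lower than the control in all 6 comparisons, the one member of which this was so. Bag3 was lower in value in all 6, and at 3 h without glucose it did not pass (-0.14). The share of all genes called in one direction in all 6 was not counted. Hsph1 was at 293 and 315 CPM in the control, 165 and 164 CPM at 3 h, 82.2 CPM in both libraries at 6 h and 61.8 and 62.7 CPM at 12 h without amino acids. After 12 h without glucose it was at 166 and 164 CPM (log2 fold change -0.88, SE 0.053, adjusted p = 1.24e-14), beside -0.89 after 3 h without amino acids. At 3 and 6 h without glucose its values were -0.16 and -0.20, calls lost without control replicate 2 (-0.11) and without glucose 6 h replicate 1 (-0.17). Hspa4 instead was at 423 and 444 CPM in the control and rose to 593 and 607 CPM at 6 h without amino acids (0.47, SE 0.053, adjusted p = 5.54e-09), and fell to 295 and 288 CPM at 12 h without glucose (-0.57, adjusted p = 1.67e-10). The 3 h value of Hspa4 without amino acids was 0.24, and with library totals it was 0.06 and did not pass. Hspa4l, the third of these genes, rose at 3 h without amino acids (0.44) and fell at 12 h (-0.71), and at 12 h without glucose it rose (0.35). Of the 7 HSP70 and HSP110 genes 6 fell after 12 h without amino acids (median -2.29), where 32.0% of all genes were lower. After 12 h without glucose 5 were higher and 2 lower (median 0.68), against 30.4% and 28.0% of all genes.

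**Figure D2:**
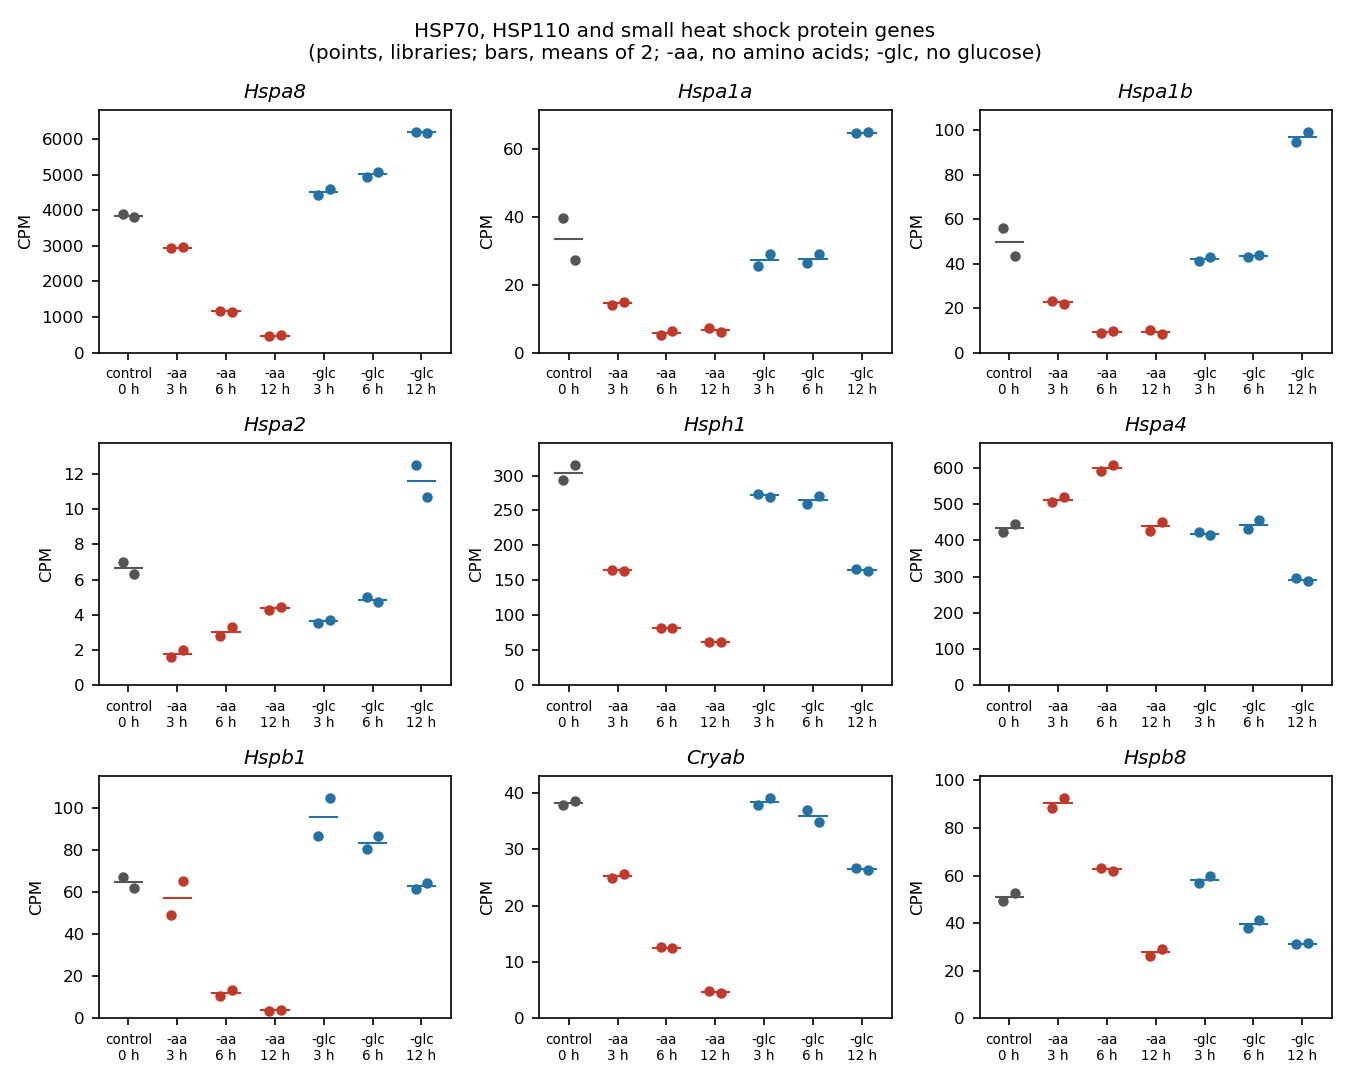
CPM of 9 HSP70, HSP110 and small heat shock protein genes in every library, by group (points, libraries; bars, means of 2). Hspa8 falls to 476 and 481 CPM after 12 h without amino acids and climbs to 6195 and 6188 CPM after 12 h without glucose, and Hspb1 and Cryab end below 5 CPM without amino acids.

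The J-domain proteins hand clients to HSP70, and Dnajb4 and Dnajb1 were highest at 3 h without amino acids. Dnajb4 was at 27.0 and 32.6 CPM in the control, 54.5 and 56.6 CPM at 3 h and 23.0 and 24.5 CPM at 6 h without amino acids. It was also higher at 3 h without glucose, with 46.2 and 45.6 CPM, and fell to 16.9 and 15.0 CPM at 12 h. The 3 h libraries of both starvations lay above both controls (log2 fold change 0.90 and 0.62, adjusted p = 8.94e-10 and 1.88e-06), and the libraries at 12 h without glucose below them (-0.90, adjusted p = 3.19e-09). Its values at 6 and 12 h without amino acids were -0.33 and -0.30, and without control replicate 2 they were -0.18 and -0.16 and did not pass. The 12 h value also missed the threshold without amino acid 12 h replicate 1 (-0.23), or with library totals (-0.17).

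Dnajb1, the J-domain protein most closely tied to HSP70 in the heat shock response, rose at 3 h without amino acids (90.6 and 87.4 CPM in the control, 117 and 113 CPM at 3 h, log2 fold change 0.36, adjusted p = 3.04e-05) and was back at 84.9 and 92.2 CPM at 12 h. Without glucose it fell at 6 h (-0.38) and 12 h (-0.46, adjusted p = 1.29e-06). Its 3 h value without glucose was -0.21, and the call was lost without control replicate 1 (-0.19) or glucose 3 h replicate 1 (-0.08). Dnaja1 and Dnaja2, which serve HSP70 in general folding, fell after 12 h without amino acids, by 0.83 and by 0.60 on the log2 scale. Dnaja1 also fell at 12 h without glucose (-0.44), and its 6 h value of -0.21 was lost without control replicate 2 (-0.13) or glucose 6 h replicate 1 (-0.12). The 3 h values of Dnaja2 were 0.28 without amino acids and 0.22 without glucose, and with library totals they were 0.10 and 0.05 and did not pass. Bag3, whose protein couples HSP70 to autophagy of damaged protein, fell at 6 and 12 h in both starvations, to 40.6 and 37.7 CPM without amino acids and 54.0 and 57.4 CPM without glucose, from 92.3 and 96.5 CPM. Of the 5 genes 4 were lower after 12 h without amino acids (median -0.60, all genes 32.0%) and all 5 after 12 h without glucose (median -0.46, all genes 28.0%). Of these calls, that of Dnajb4 without amino acids is qualified above, and that of Dnaja2 without glucose (-0.16) was lost without control replicate 2 (-0.10) or glucose 12 h replicate 2 (-0.13).

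The HSP90 pair split. Hsp90ab1 encodes the constitutive form and Hsp90aa1 the more inducible one. Hsp90ab1 was at 4237 and 4463 CPM in the control, 4203 and 4193 CPM at 3 h, 2710 and 2682 CPM at 6 h and 1069 and 1046 CPM at 12 h without amino acids. The 3 h libraries were just below the controls and did not pass (-0.05, adjusted p = 0.393), and the fall came after that (-0.69 at 6 h and -2.04 at 12 h, SE 0.052, adjusted p = 1.1e-23). Hsp90aa1 was at 1159 and 1239 CPM in the control and 1466 and 1524 CPM at 3 h, a rise of 0.32 (SE 0.055, adjusted p = 1.1e-05), followed by a 6 h value of 0.14 that did not pass with library totals (0.06) or without control replicate 1 (0.10) or amino acid 6 h replicate 2 (0.11). It was at 807 and 870 CPM at 12 h (-0.52, adjusted p = 1.94e-09). Per length, the level of Hsp90ab1 was 4.76 and 4.69 times that of Hsp90aa1 in the control libraries, 3.73 and 3.58 times at 3 h, 2.73 and 2.58 times at 6 h and 1.72 and 1.57 times at 12 h without amino acids. Without glucose the ratio stayed between 3.77 and 4.17. In that starvation Hsp90ab1 lay between 4165 and 4686 CPM and did not pass against the control at any time. Hsp90aa1 rose at 3 h (0.31, adjusted p = 2.63e-05). Its later values without glucose were 0.25 and 0.18, and with library totals they were 0.12 and 0.07 and did not pass. The 12 h value was also lost without control replicate 1 (0.13) or glucose 12 h replicate 1 (0.15). Of the Hsp90aa1 stretches 47.5% occur in other genes, chiefly the pseudogene Gm12346.

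The cochaperone genes Cdc37, Fkbp4, Ahsa1 and Stip1 fell at all 3 times without amino acids, already at 3 h. Cdc37, which brings protein kinases to HSP90, went from 257 and 242 CPM in the control to 213 and 206 CPM, 128 and 127 CPM, and 91.4 and 86.9 CPM at 3, 6 and 12 h without amino acids. Every step was down without overlap, and the 12 h log2 fold change was -1.49 (SE 0.057, adjusted p = 1.7e-19). Fkbp4, an immunophilin of steroid receptor complexes, fell by 0.32, 0.91 and 1.30 on the log2 scale at the same times. Ahsa1, which speeds the HSP90 ATPase, fell by 0.57, 0.80 and 1.12. Stip1, the adaptor that joins HSP70 to HSP90, fell by 0.28, 0.70 and 0.80. St13, which binds HSP70 on the same route, fell at 6 and 12 h by 0.24 and 0.74.

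Fkbp5, an immunophilin known as a glucocorticoid target, had the reverse timing. It was at 74.7 and 74.0 CPM in the control, 39.1 and 41.7 CPM at 3 h, 54.3 and 50.6 CPM at 6 h and 64.0 and 66.0 CPM at 12 h without amino acids. Its lowest libraries were those at 3 h (log2 fold change -0.88, SE 0.068, adjusted p = 3.55e-12), and it came back towards the control later, with a 12 h value of -0.19 that was -0.06 and did not pass with library totals. Ptges3, which encodes the p23 cochaperone, rose at 3 and 6 h in both starvations, with log2 fold changes of 0.33 and 0.47 without amino acids and 0.35 and 0.44 without glucose, and did not pass at 12 h in either (0.10 and 0.09). Chordc1, a zinc-binding HSP90 partner, was at 76.9 and 91.7 CPM in the control and 96.5 and 109 CPM after 12 h without amino acids. That value (0.29, adjusted p = 0.000892) did not pass without control replicate 1 (0.17) or amino acid 12 h replicate 2 (0.15). Chordc1 rose at 6 h without glucose (0.38), and its 12 h value of 0.29 was lost without control replicate 1 (0.17). The glucose values of St13 were 0.17, 0.16 and 0.18, and with library totals they were 0.00, 0.03 and 0.08 and did not pass. At 6 h without glucose Stip1 (-0.18) did not pass without glucose 6 h replicate 2 (-0.16), nor Fkbp5 (-0.23) without glucose 6 h replicate 1 (-0.14). Of the 10 HSP90 genes 8 were lower and 1, Chordc1, was higher after 12 h without amino acids (median -0.77), where 32.0% of all genes were lower and 34.9% higher. At 12 h without glucose 3 were higher and 1 lower (median 0.03). The 30% higher is near the 30.4% of all genes, and 28.0% of all genes were lower. Of these 4 calls the one kept under every alternative was that of Stip1 (-0.18).

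**Figure D3:**
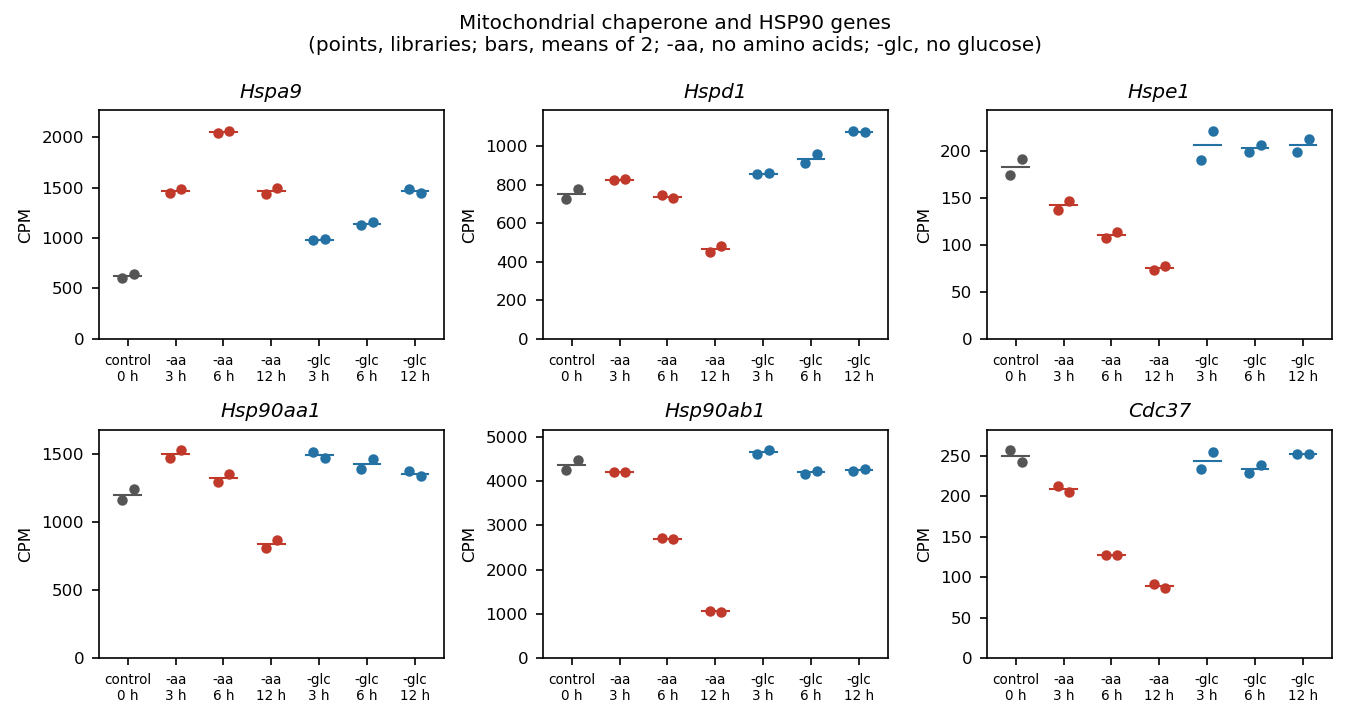
CPM of 3 mitochondrial chaperone genes and 3 HSP90 genes in every library, by group (points, libraries; bars, means of 2). Hspa9 is above both controls in all 12 starved libraries, and Hsp90ab1 and Cdc37 step down without amino acids and stay level without glucose.

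The mitochondrial chaperone Hspa9 rose in both starvations. Its product, mortalin, pulls imported proteins into the matrix. It was at 605 and 639 CPM in the control, 1443 and 1486 CPM at 3 h, 2038 and 2059 CPM at 6 h and 1432 and 1494 CPM at 12 h without amino acids. Without glucose it was at 976 and 988 CPM, 1127 and 1155 CPM, and 1481 and 1450 CPM. All 12 starved libraries were above both controls, with a peak at 6 h without amino acids and a steady climb without glucose. The log2 fold changes were 1.24, 1.72 and 1.23 without amino acids and 0.66, 0.88 and 1.24 without glucose (SE 0.051 to 0.052, adjusted p from 1.48e-21 to 1.19e-11). Hspa9 was the one member called higher than the control in all 6 comparisons. Ptges3 was higher in value in all 6 and did not pass at 12 h in either starvation. For Hspa9 the starvations met at 12 h, and the difference between them was 0.00 (SE 0.051, adjusted p = 0.98). The level of Hspa8 was 8.21 and 7.58 times that of Hspa9 per length in the control libraries, 0.423 and 0.41 times after 12 h without amino acids and 5.33 and 5.44 times after 12 h without glucose.

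Hspd1 and Hspe1 encode the HSP60 barrel of the matrix and its HSP10 lid, and they share the promoter window shown above. Hspe1 was at 175 and 192 CPM in the control, 138 and 148 CPM at 3 h, 108 and 114 CPM at 6 h and 74.1 and 77.5 CPM at 12 h without amino acids, each step down without overlap. Its 12 h log2 fold change was -1.28 (SE 0.066, adjusted p = 2.59e-16). Hspd1 was at 725 and 780 CPM in the control, 823 and 827 CPM at 3 h, 745 and 729 CPM at 6 h and 451 and 485 CPM at 12 h, so its fall appeared at 12 h (-0.69, SE 0.054, adjusted p = 2.7e-12). Its 3 h value of 0.13 was -0.04 with library totals, and it did not pass without control replicate 1 (0.08) or either amino acid 3 h library (0.14 and 0.13). Per length, the level of Hspd1 was 1.32 and 1.30 times that of Hspe1 in the control libraries and 2.20 and 2.04 times after 6 h without amino acids; the ratio was higher in all 6 amino acid starved libraries than in the controls. Without glucose Hspd1 climbed to 1078 and 1072 CPM at 12 h (0.51, SE 0.053, adjusted p = 1.74e-09), and it rose at 6 h (0.31). Its 3 h value there was 0.19, and 0.02 with library totals, and it did not pass without control replicate 1 (0.13). For Hspe1 the glucose values were 0.17, 0.15 and 0.17, of which the first and last passed, and neither did with library totals (0.00 and 0.07). The 3 h libraries overlapped the controls, and its call was also lost without control replicate 1 (0.10) or glucose 3 h replicate 2 (0.05). The 12 h call was lost without control replicate 1 (0.10) or glucose 12 h replicate 2 (0.13). The exons of Hspd1 and Hspe1 overlap on opposite strands, and whether the counting used strand is not given in the sources used here, so part of their reads cannot be assigned to one or the other.

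The small heat shock proteins hold unfolded clients without ATP, and Hspb1 and Cryab had the lowest 12 h log2 fold changes of all members without amino acids. Hspb1 was at 67.4 and 62.1 CPM in the control, 49.2 and 65.3 CPM at 3 h, 10.6 and 13.6 CPM at 6 h and 3.42 and 4.17 CPM at 12 h without amino acids. The 3 h libraries overlapped the controls, and the later ones lay below. The log2 fold change was -2.41 at 6 h and -4.09 at 12 h (SE 0.18, adjusted p = 6.76e-10), a 17-fold drop. Without glucose Hspb1 was at 86.9 and 105 CPM at 3 h, 80.5 and 86.5 CPM at 6 h and 61.7 and 64.5 CPM at 12 h. Its value at 3 h was 0.57 (adjusted p = 0.00562), lost without control replicate 2 (0.51) or glucose 3 h replicate 2 (0.42). At 6 h it was 0.37, lost with DESeq2 (0.37), with library totals (0.24) and without any 1 of the 4 libraries (0.31 to 0.43). Of the Hspb1 stretches 56.3% occur in the pseudogene Hsp25-ps1.

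Cryab encodes alphaB-crystallin, and it was at 37.9 and 38.5 CPM in the control, 25.0 and 25.6 CPM, 12.6 and 12.5 CPM, and 4.88 and 4.48 CPM at 3, 6 and 12 h without amino acids. Each step was down without overlap, to a log2 fold change of -3.03 (SE 0.09, adjusted p = 4.14e-22). After 12 h without glucose it was at 26.7 and 26.4 CPM (-0.52, adjusted p = 8.68e-07). Its exons overlap Hspb2 on the other strand, and that gene had at most a group mean of 0.612 CPM.

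Hspb8, the small heat shock partner of BAG3, first rose and then fell. It was at 49.5 and 52.5 CPM in the control, 88.4 and 92.5 CPM at 3 h, 63.2 and 61.9 CPM at 6 h and 26.3 and 29.2 CPM at 12 h without amino acids. Its log2 fold change was 0.83, 0.30 and -0.88 (SE 0.068 to 0.07, adjusted p = 1.19e-11, 0.00035 and 4.28e-12). Without glucose it fell at 6 and 12 h (-0.36 and -0.70). Its 3 h value of 0.19 was 0.02 with library totals, and it did not pass without control replicate 1 (0.15) or glucose 3 h replicate 2 (0.15). Hspb8 and Bag3, whose proteins work as a pair, moved in opposite directions at 6 h without amino acids (0.30 and -0.95).

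Of the chaperonin genes Tcp1, Cct2, Cct3, Cct5 and Cct7 fell by 12 h without amino acids. Per length, the levels of the 7 member subunits then lay closer together than in the control. With Cct6a, a subunit that is not a member, most of this narrowing would be lost. CCT is a double ring of different subunits in equal number, and 7 of its genes are members. Cct5 was at 583 and 563 CPM in the control, 499 and 502 CPM at 3 h, 371 and 382 CPM at 6 h and 234 and 224 CPM at 12 h. It fell at each step without overlap (12 h log2 fold change -1.32, SE 0.052, adjusted p = 3.89e-19). Cct2 was at 527 and 524 CPM in the control, 581 and 583 CPM at 3 h, 451 and 457 CPM at 6 h and 227 and 242 CPM at 12 h (-1.16, adjusted p = 7.11e-18). Its 3 h value of 0.15 was -0.03 with library totals, and it did not pass without either amino acid 3 h library (0.15 each). Tcp1, Cct3 and Cct7 fell at 12 h by 1.03, 0.84 and 0.60 on the log2 scale. Tcp1 and Cct3 had also fallen at 6 h, by 0.40 each, and Cct7 had a 6 h value of -0.21, lost without control replicate 1 (-0.13).

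For Cct4 and Cct8 no fall was seen at 3 or 6 h. Cct4 was at 381 and 393 CPM in the control, 468 and 484 CPM at 3 h, 447 and 459 CPM at 6 h and 346 and 374 CPM at 12 h without amino acids. It rose at 3 and 6 h (0.30 and 0.22, adjusted p = 2.69e-05 and 0.000643) and did not pass at 12 h (-0.11, adjusted p = 0.0843). Cct8 had values of 0.16, 0.12 and -0.19, of which the first was -0.02, the second 0.04 and the third -0.06 with library totals, and none passed there. Without control replicate 1 the first 2 were 0.12 and 0.08 and did not pass, nor did the first without amino acid 3 h replicate 2 (0.14) or the second without amino acid 6 h replicate 1 (0.15) or 2 (0.09). Of the 7 subunits 6 were lower after 12 h without amino acids (all genes 32.0%), with a median of -0.84 and a range from -1.32 to -0.11.

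Among the member subunits the highest level per length was 2.05 and 2.07 times the lowest in the control libraries. Cct5 or Tcp1 led there and Cct4 was last. Following 12 h without amino acids the ratio was 1.36 and 1.38, with Cct8 first and Cct2 or Cct5 last. Cct6a, a subunit that is not a member, was at a mean of 243 RPKM in the control, within the range of the members. At 12 h without amino acids it was at 225 RPKM, above Cct8 at 162 RPKM, so with Cct6a the ratio there would be wider. Without glucose the ratio of the members lay between 1.89 and 2. Without glucose Cct2 rose at all 3 times, to 726 and 749 CPM at 12 h (0.31, 0.32 and 0.49, SE 0.051, adjusted p = 2.14e-09 at 12 h), and Cct4 rose at 12 h (0.39, adjusted p = 5.19e-07). At 3 and 6 h without glucose the values of Cct4 were 0.22 and 0.20, and with library totals they were 0.05 and 0.07 and did not pass. The 6 h value was also lost without glucose 6 h replicate 2 (0.17). Tcp1 and Cct8 had 3 h values of 0.15 and 0.23, which were -0.02 and 0.06 with library totals and did not pass, and without control replicate 1 that of Tcp1 was 0.11 and did not pass. At 6 h Cct8 was at 0.17, lost with library totals (0.04) and without control replicate 1 (0.13) or glucose 6 h replicate 2 (0.14). At 12 h without glucose 3 subunits were higher and 1 lower (median 0.11; all genes 30.4% and 28.0%), and of these Cct8 (0.16) was lost with library totals (0.06) and without control replicate 1 (0.12) or glucose 12 h replicate 1 (0.14), and Cct3 (-0.15) without control replicate 1 (-0.09) or glucose 12 h replicate 1 (-0.12).

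**Figure D4:**
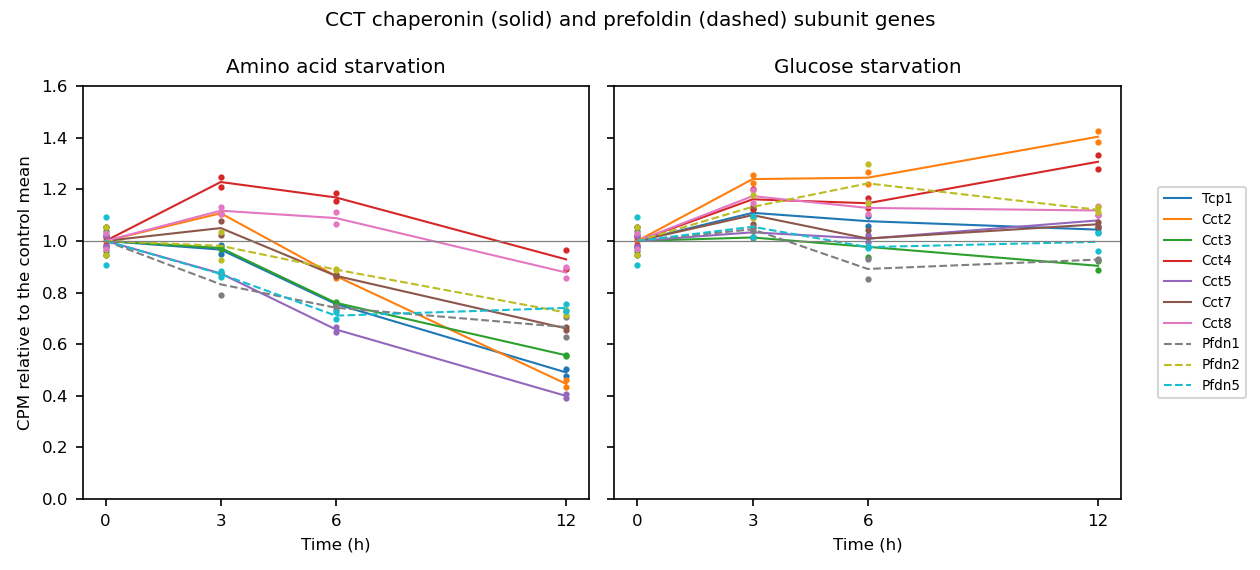
CPM of the CCT (solid) and prefoldin (dashed) genes relative to the mean of the 2 controls, against time in hours (points, libraries; lines, means). Without amino acids the lines fan downwards, with Cct5 lowest and Cct4 highest at 12 h, and at 12 h without glucose Cct2 and Cct4 lie above the rest.

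Prefoldin delivers actin and tubulin to CCT, and its 3 member genes fell by 12 h without amino acids. At that time 32.0% of all genes were lower, with a median log2 fold change of 0.06 over all genes. Pfdn5 was at 95.3 and 79.2 CPM in the control, 60.8 and 63.2 CPM at 6 h and 65.8 and 63.4 CPM at 12 h without amino acids (12 h log2 fold change -0.43, SE 0.07, adjusted p = 2.85e-06). Pfdn1 and Pfdn2 fell by 0.59 and 0.47 on the log2 scale at 12 h. The median of the 3 was -0.47. None passed at 3 or 12 h without glucose, and Pfdn2 had a 6 h value of 0.29, which was 0.16 with library totals and 0.20 without glucose 6 h replicate 2 and passed in neither. Pfdn2 shares 26.7% of its stretches with the overlapping gene Klhdc9.

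Subunits of the same complexes that are not members, taken from a list of 71 further genes of these pathways, did not all move with the members. Vbp1, Pfdn6, Pfdn4 and Cct6a were chosen for naming after their values were seen, and alternatives were not run for these 71 genes. Vbp1, a prefoldin subunit, was at 67.9 and 77.2 CPM in the control and rose to 132 and 161 CPM after 12 h without amino acids (1.01, SE 0.078, adjusted p = 1.02e-11). Pfdn6, another prefoldin subunit, fell from 45.8 and 47.1 CPM to 20.6 and 21.4 CPM (-1.15, adjusted p = 3.24e-13). The chaperonin subunit Cct6a was at 622 and 637 CPM in the control and 566 and 600 CPM at 12 h, and did not pass (-0.11, adjusted p = 0.0556). Pfdn4, the remaining prefoldin subunit, was at 25.6 and 28.2 CPM in the control and 30.4 and 35.6 CPM at 12 h (0.30, adjusted p = 0.0136). Within prefoldin, Vbp1 and Pfdn4 were higher at 12 h, and Pfdn6 and the 3 members lower.

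Over all 71 further genes 26 (36.6%) were higher and 32 (45.1%) lower after 12 h without amino acids, with a median of -0.08 (all genes 34.9% and 32.0%, median 0.06). At 12 h without glucose 33 (46.5%) were higher and 13 (18.3%) lower, with a median of 0.19 (all genes 30.4% and 28.0%, median 0.01). Without amino acids the counts were 19 higher and 30 lower at 3 h (all genes 27.9% and 32.1%) and 25 and 35 at 6 h (32.3% and 33.3%). Without glucose they were 21 and 11 at 3 h (20.3% and 23.1%) and 27 and 18 at 6 h (23.3% and 24.2%). Lonp1, the protease of the mitochondrial matrix, was at 144 and 115 CPM in the control, 394 and 369 CPM after 12 h without amino acids and 540 and 544 CPM after 12 h without glucose. Its log2 fold changes there were 1.56 (SE 0.069) and 2.06 (SE 0.07, adjusted p = 6.59e-20), both higher than the control, as for Hspa9. Of the 9 mitochondrial folding and protease genes on that list 7 were higher and none lower after 12 h without glucose (all genes 30.4% and 28.0%), and 5 were higher and 3 lower after 12 h without amino acids (all genes 34.9% and 32.0%). In the tubulin folding route, Txndc9, a regulator of CCT, rose from 51.9 to 128 CPM (group means, 1.30) after 12 h without amino acids, while the tubulin cofactors Tbcb and Tbca fell by 1.74 and 1.42 on the log2 scale.

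At matched times the difference between the starvations does not use the control. At 3 h 7 members were higher without amino acids than without glucose and 21 lower (all genes 26.7% and 27.7%; median -0.15 against -0.03). At 6 h 6 were higher and 28 lower (31.5% and 32.3%; median -0.43 against -0.01), and at 12 h 4 were higher and 33 lower (32.5% and 31.6%; median -0.69 against 0.03). By 12 h 17 members were at least 2-fold lower without amino acids, as were 11.3% of all genes. With library totals 7 were higher and 30 lower at 12 h, where the median of all genes was 0.27.

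The widest differences at 12 h were those of Hspb1 (-4.05, SE 0.18), Hspa8 (-3.69, SE 0.056), Hspa1b (-3.37, SE 0.1) and Hspa1a (-3.31, SE 0.15), with adjusted p from 2.55e-28 to 8.85e-10. The libraries of the starvations did not overlap for any of these 4 genes. All 7 chaperonin subunits were lower without amino acids at 12 h, and the difference of Cct8 (-0.35) was -0.11 and did not pass with library totals. Hsf2 (1.07, SE 0.069), Dnajb4 (0.60), Hspa4 (0.59) and Dnajb1 (0.45) were higher. Hspa9, Ptges3 and Chordc1 did not pass at 12 h, with differences of 0.00, 0.00 and -0.01 (SE 0.051, 0.066 and 0.072).

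**Figure D5:**
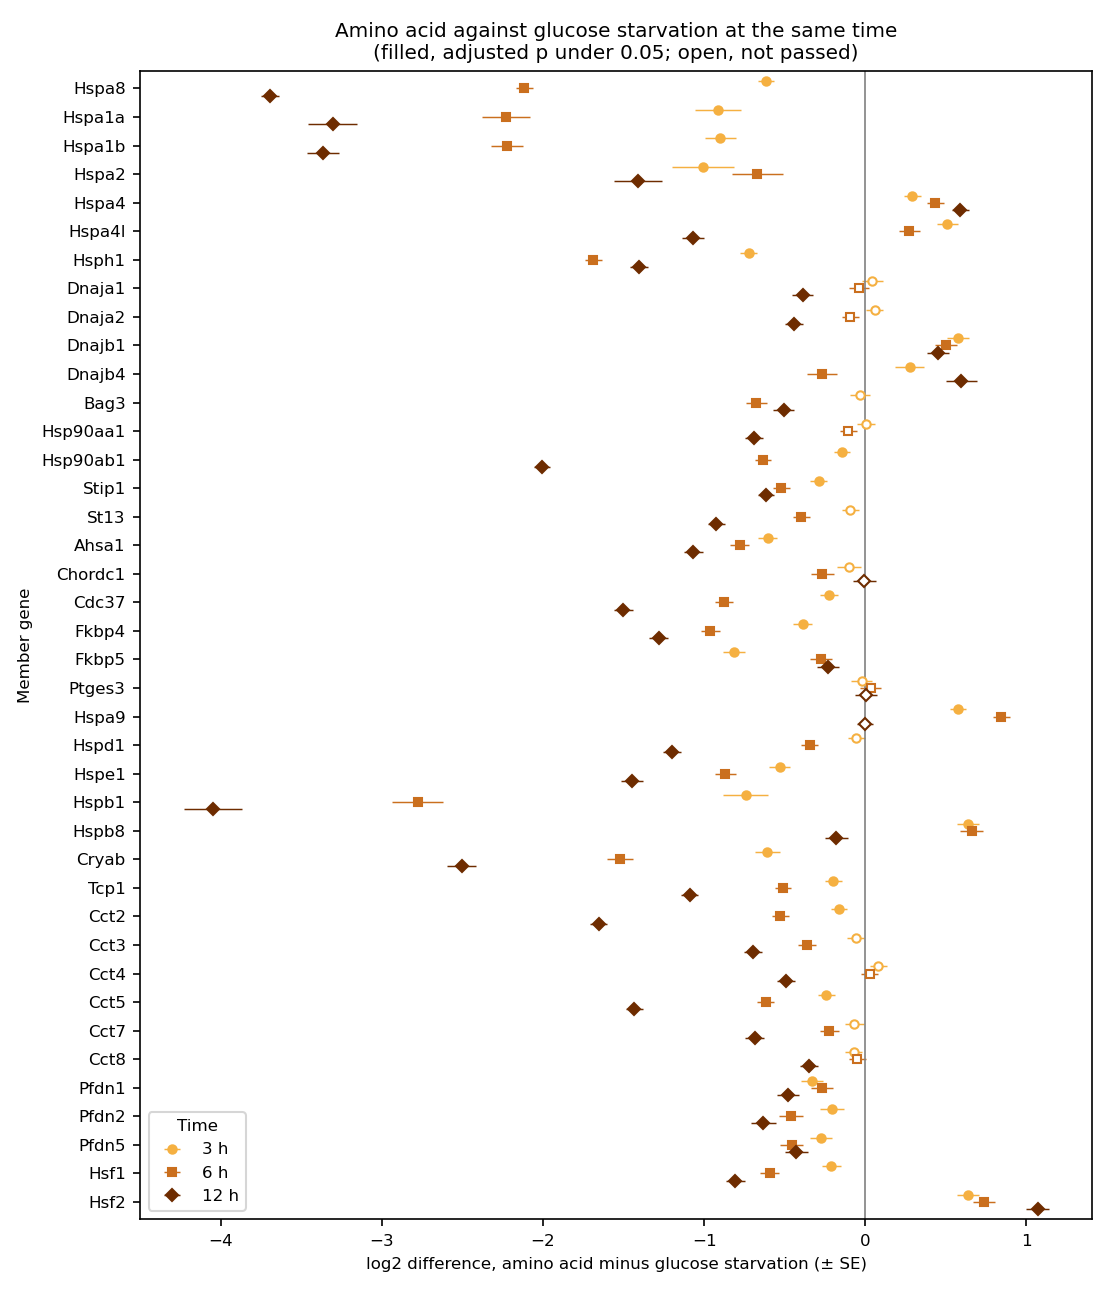
Difference between amino acid and glucose starvation for each member at 3, 6 and 12 h (x axis, log2 difference with its SE; below 0, lower without amino acids; filled, adjusted p under 0.05). Most points at 12 h lie left of 0, down to -4.05 for Hspb1, and Hsf2, Dnajb4, Hspa4 and Dnajb1 lie to the right.

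Within each starvation the members also changed between 3 and 12 h. Without amino acids 4 were higher at 12 h than at 3 h and 35 lower (all genes 35.5% and 32.9%; median -0.83 against 0.04), and with library totals 5 were higher and 26 lower, where the median of all genes was 0.35. The 4 that rose were Hspa2 (1.27), Fkbp5 (0.69), Hsf2 (0.43) and Chordc1 (0.37). Among the members 13 were lower at each step from the control to 12 h, with no overlap between the libraries of successive times, a pattern that 5.76% of all genes tested showed: Hspa8, Hsph1, Bag3, Hsp90ab1, Stip1, Ahsa1, Cdc37, Fkbp4, Hspe1, Cryab, Cct5, Pfdn1 and Hsf1. Without glucose 11 were higher and 16 lower at 12 h than at 3 h (all genes 31.8% and 25.5%; median -0.08 against 0.07), and with library totals 13 were higher and 12 lower. Hspa2 (1.68), Hspa1a (1.25) and Hspa1b (1.20) led the rises, and Dnajb4 (-1.52), Hspb8 (-0.89) and Hsph1 (-0.72) the falls. In glucose starvation Hspa8, Hspa9 and Hspd1 were higher at each step without overlap (3.76% of all genes), and Bag3 was lower at each (2.84%).

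The exons of 12 members overlap those of another annotated gene, 9 of them on the other strand, and 14 members share at least 10% of their 100-base stretches with another gene (GENCODE M21). After 12 h without amino acids the remaining 24 members, with neither, gave 3 higher and 18 lower (all genes 34.9% and 32.0%). After 12 h without glucose they gave 8 higher and 9 lower (all genes 30.4% and 28.0%). The other 16 gave 0 and 15 without amino acids, and 7 and 2 without glucose. At 12 h without glucose higher members outnumbered lower ones among these 16 and not among the 24.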

How the data were processed

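The authors deposited raw counts of reads per transcript row, with a transcript length, for 14 libraries of mouse embryonic fibroblasts. Reads were mapped to GRCm39 with STAR and handled with bedtools, per the submitters' processing notes; versions, annotation, counting rule and strand setting are not given in the sources used here. Of 67457 rows, 58 without a gene name held no reads (0% of reads) and were left out, and 0 columns belonged to other samples. For each symbol the row with the most reads was used. Genes were filtered by edgeR's filterByExpr (17696 tested) and fitted with edgeR 4.0.16 (R 4.3.3, limma 3.58.1) as 7 group means over all 14 libraries: TMM factors (0.931 to 1.16), robust quasi-likelihood fit, two-sided tests, Benjamini-Hochberg adjustment within each of 11 comparisons, threshold 0.05. CPM use TMM factors, and RPKM divide CPM by the deposited length. With 2 libraries a group, residual df were 7 and prior df 20.9, and the typical biological coefficient of variation was 5.78%. No single-library outlier test applies to groups of 2. The fits were run on simulated counts with a constant spread. In these, 65, 64 and 66 of 16953 genes changed by 0.5, 1 and 2 on the log2 scale, in both directions. Of these changes 69.2%, 78.1% and 95.5% were recovered, and 5 of 163 calls were false. Far more genes were called in the data, so the simulation cannot show how the scaling bears on the results.

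Alternatives were RLE factors, library totals, DESeq2 1.42.0, no filter on low counts (1 read), CPM of at least 1 in 4 libraries, a replicate block, leaving out each library and, added after seeing the data, the longest transcript row. Replicates differed beyond counting noise (chi-square per degree of freedom 3.38 to 13.6), so none was counted as a duplicate. The members, the 71 further genes and the marker lists were chosen with earlier results of these data known. Beyond the members, further genes were named as the 2 called genes highest and the 2 lowest in log2 fold change in each comparison, at a minimum average log2 CPM of 3, and a selection of them is given. Exon overlaps and shared 100-base stretches came from GENCODE M21, promoter windows from RefSeq (GRCm38.p6). Both use an older build than the counts, and their coordinates were not mixed with it.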

Additional observations from a re-analysis of the deposited data

Results flagged for a closer look

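The results in this section are members called in opposite directions against the control by the 2 starvations at the same time, where the direct difference between the starvations also passed (edgeR's quasi-likelihood test). Groups on opposite sides of one control already differ in value, so the direct difference adds little to the opposite calls. The share of all genes called in opposite directions was not counted, so the number of members listed here cannot be read against it. Values are log2 differences, amino acid minus glucose starvation. At 3 h these were Hspa8 (-0.62), Hspe1 (-0.53) and Dnajb1 (0.57), the last being higher without amino acids. At 6 h Hspb8 (0.66) was higher without amino acids, and Hspb1 (-2.78), Hspa8 (-2.12), Hsf1 (-0.59), Cct2 (-0.53), Pfdn2 (-0.46) and St13 (-0.40) were lower.

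At 12 h all such members were lower without amino acids. Among the HSP70 and HSP110 genes Hspa8 was at -3.69, Hspa1b at -3.37, Hspa1a at -3.31, Hspa2 at -1.41 and Hspa4l at -1.07. Cct2 differed by -1.65, Hspe1 by -1.45, Hspd1 by -1.20, St13 by -0.92, Hsf1 by -0.81, Hsp90aa1 by -0.69 and Cct8 by -0.35. Of all 22, the difference of Cct8 at 12 h was the one that did not pass with library totals (-0.11). Where one of the opposite calls against the control was itself lost under an alternative (Hspe1, Dnajb1 and Hspa8 at 3 h, St13, Hspb1, Pfdn2 and Hsf1 at 6 h, and St13, Hsf1, Hsp90aa1, Hspe1 and Cct8 at 12 h), the opposition rests on that call.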

How the results depend on the processing

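Library totals in place of TMM factors changed the most: 9 members rose after 3 h and 5 after 12 h without amino acids, 6 rose and 15 fell after 3 h and 6 rose and 19 fell after 6 h without glucose, and 7 were higher in the 12 h comparison of the starvations. Directions then reversed for Hspd1 (-0.0439), Cct2 (-0.03) and Cct8 (-0.0172) at 3 h without amino acids, Tcp1 (-0.0191) at 3 h without glucose, Fkbp5 (0.0069) and Hspb8 (0.0579) between the starvations at 12 h, and Hspa4 (0.0851), Ptges3 (0.0751) and Pfdn5 (0.0743) between 12 and 3 h without amino acids. None of these reversed values passed with library totals. The cause was not tested. RLE factors, DESeq2, the other filters and the longest transcript row moved no count of members by over 1.5 times.

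Leaving out 1 library gave, without amino acids, 11 to 14 higher and 14 to 16 lower members at 3 h, 6 to 9 and 25 to 26 at 6 h, and 2 to 4 and 32 to 34 at 12 h. Without glucose it gave 11 to 17 and 2 to 4 at 3 h, 8 to 13 and 5 to 10 at 6 h, and 13 to 15 and 10 to 11 at 12 h. Between the starvations it gave 6 to 7 and 17 to 21 at 3 h, 6 to 6 and 25 to 28 at 6 h, and 4 to 4 and 32 to 33 at 12 h. Between 12 and 3 h it gave 4 to 4 and 34 to 35 without amino acids, and 9 to 11 and 12 to 15 without glucose. Of 1760 such single-gene values 1625 kept their call or lack of one, 108 lost a call and 27 gained one.

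The replicate numbers are shared between groups, but same-numbered libraries did not deviate together (r from -0.125 to 0.179 over 21 pairs of groups, 8 over 0.1), so the numbers were not taken as a pairing. With the replicate block 430 of 440 member values kept their call or lack of one, 10 gained a call and 0 lost one. With 2 libraries a group, precision rests on a spread shared by all groups.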
